A study of Mus musculus with 4 samples.

Results

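Fat spots were the places in 4 caerulein-treated mouse pancreas sections where transcripts of *Adipoq*, *Plin1*, *Cfd*, *Car3* and *Cidec* made up the largest share of what was captured. A Visium spot is a small barcoded region of a slide that can take up RNA from several cells, and each captured molecule is counted by its unique molecular identifier (UMI). The spots were selected on the measured UMIs of these 5 genes divided by all UMIs of the spot, among spots with at least 150 UMIs, and up to 200 of the highest spots per section with at least 2 UMIs of the 5 genes were taken. This gave 446 fat spots of 32982 spots with at least 150 UMIs. There were 22 and 64 fat spots in *Ehmt2* +/+ replicates 1 and 2, and 160 and 200 in *Ehmt2* fl/fl replicates 1 and 2, an order in which the 4 sections are listed throughout.

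The sections came from C57Bl/6 mice of 4 weeks that carried *Pdx1-Cre*, and each was taken to be its own mouse, which the labels do not state. The mice had received 8 hourly injections of caerulein at 50 μg/kg after a fast of 12 h, with collection 18 h after the first injection. Caerulein is a cholecystokinin analogue that provokes acute pancreatitis. The groups differed in the histone methyltransferase gene *Ehmt2*, which was intact (+/+) or flanked by loxP sites (fl/fl), and *Pdx1-Cre* recombines it in pancreatic epithelium and not in fat. By this design, fat at the edge of the pancreas was a neighbor of the altered epithelium and not the target. Recombination in fat was not tested. The sections held 44308142, 8870484, 7137781 and 8622684 UMIs, and their fat spots 50269, 67323, 124234 and 201309, so +/+ replicate 1 stood apart as the deepest section with the fewest fat spots. *Ehmt2* itself had 0, 1, 1 and 5 UMIs in fat spots and 877, 38, 76 and 102 UMIs in whole sections, which does not check the labels.

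The Y-linked genes *Ddx3y*, *Eif2s3y*, *Kdm5d* and *Uty* had between 0 and 1 UMI each in either +/+ section and between 36 and 150 UMIs each in the fl/fl sections, while *Xist*, the X-inactivation transcript, had 0 UMIs in all 4 and so says nothing. Genotype and sex of the mice cannot be told apart in any comparison between these groups.

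White adipocytes store triglyceride in a single large lipid droplet coated by perilipins, take up and make fatty acids when fed, and release them when adrenergic receptors activate lipases. They also secrete hormones and complement proteins, of which adiponectin (*Adipoq*) and adipsin (*Cfd*) are well known. Fat surrounds the mouse pancreas closely, and pancreatic lipase set free in pancreatitis is known to injure it.

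Windows of 100 bases just before the annotated start of the rule genes present in the RefSeq promoter table (build GRCm38.p6) are printed because these genes defined the spots. *Adipoq* lies on the plus strand at chr16:23146436-23146535, *Plin1* on the minus strand at chr7:79732777-79732876, *Cfd* on the plus strand at chr10:79890753-79890852 and *Cidec* on the minus strand at chr6:113435761-113435860. Capitals mark matches on either strand to the letters CCAAT and, for C/EBP factors that act in adipocyte differentiation, TTGCNNAA.
Adipoq: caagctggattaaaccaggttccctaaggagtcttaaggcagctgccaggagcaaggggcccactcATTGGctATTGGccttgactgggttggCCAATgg
Plin1: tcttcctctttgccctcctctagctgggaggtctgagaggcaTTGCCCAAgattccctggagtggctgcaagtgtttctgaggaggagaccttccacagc
Cfd: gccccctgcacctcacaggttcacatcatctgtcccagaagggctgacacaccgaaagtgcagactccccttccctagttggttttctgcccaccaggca
Cidec: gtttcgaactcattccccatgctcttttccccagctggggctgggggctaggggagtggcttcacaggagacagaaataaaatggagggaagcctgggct
Of the 27025 promoters in the table, each searched over 300 bases, 37.9% held CCAAT and 10.8% held TTGCNNAA, so neither match marks out these genes. The letters TATAAA, held by 14.2% of promoters, did not occur in these 4 windows. *Car3* was not in the table.

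*Car3*, which encodes a carbonic anhydrase abundant in adipocytes and also made in skeletal muscle and liver, supplied most of the signal by which fat spots were chosen. It gave 79, 135, 321 and 1089 UMIs in the fat spots of the 4 sections, 70.1% of the 2318 UMIs of the 5 genes. *Cfd* gave 19, 60, 184 and 251 UMIs, or 22.2%. *Adipoq* had 6, 16, 39 and 39 UMIs, *Plin1*, the perilipin of the large droplet, 0, 7, 13 and 29, and *Cidec*, which fuses lipid droplets, 3, 6, 10 and 12. The adipocyte genes proper were thus thinly counted, and *Plin1* was not seen in the fat spots of +/+ replicate 1. Of the 446 fat spots, 304 held at least 2 of the 5 genes, 121 held *Car3* alone and 179 held exactly 2 UMIs of the 5 genes. Markers of skeletal muscle, which is also rich in *Car3*, were few: the 6 genes of that list gave 0, 2, 6 and 21 UMIs in fat spots, with *Ckm* at 0, 1, 1 and 4, and their summed level was 0, 0.809, 0.957 and 1.20 times that of the other spots. *Alb* (albumin), a liver gene looked up after the values were seen, had 0, 1, 3 and 2 UMIs in fat spots.

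The share of UMIs from the 5 genes ranged from 0.0399% to 1.06% over the fat spots of +/+ replicate 1 with a median of 0.182%, and the medians of the other sections were 0.344%, 0.418% and 0.666%. Only fl/fl replicate 2 reached the limit of 200 spots. There the last spot taken had 2 such UMIs of 935 and the next one, left out, had 2 of 941. In the other 3 sections every spot with 2 or more was taken, and 127, 423 and 571 further spots had 1. Fat spots held a median of 1968.5, 801, 694 and 899 UMIs, against 5450, 759, 918 and 970 in the other spots, so they were shallower than their surroundings in all but +/+ replicate 2. Of the slide positions, fat spots shared a barcode in 2 of the 6 pairs of sections, 1 spot each.

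**Figure D1:**
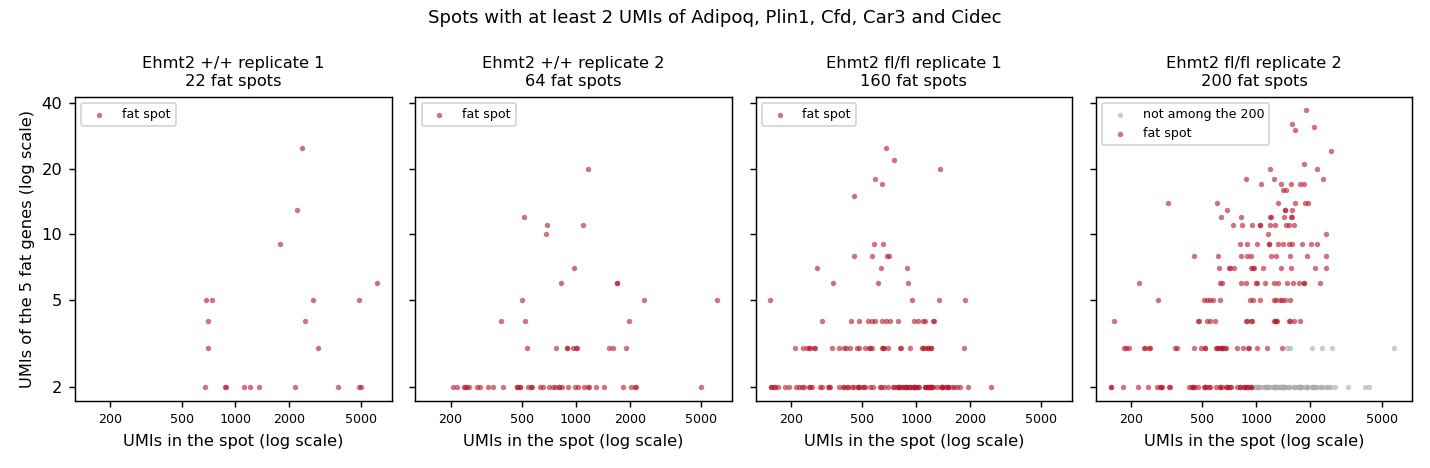
Spots with at least 2 UMIs of *Adipoq*, *Plin1*, *Cfd*, *Car3* and *Cidec*, with the UMIs of the spot on the x axis and the UMIs of the 5 genes on the y axis, both on log scales. Red points are the 22, 64, 160 and 200 fat spots of the 4 sections, gray points the 82 spots of *Ehmt2* fl/fl replicate 2 beyond its limit of 200, and many points lie at 2 UMIs.

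Spots with at least 2 UMIs of the 5 genes were more frequent in fl/fl than in +/+ sections. They made up 0.313% of spots (95% Clopper-Pearson interval 0.196% to 0.473%) in +/+ replicate 1 and 0.623% (0.480% to 0.794%) in +/+ replicate 2. In fl/fl replicates 1 and 2 they made up 2.11% (1.80% to 2.46%) and 3.49% (3.10% to 3.91%). The groups did not overlap, which is given as a description, as these are the values that chose the spots. These intervals cover counting error only, and more fat in a section and more RNA per fat cell cannot be told apart from such counts, nor was the area of fat cut with each pancreas tested.

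Genes that had no part in the choice of spots were higher step by step with the UMIs of the 5 genes. Over 74 adipocyte genes from 6 lists (secreted proteins, lipid droplets and lipolysis, fatty acid uptake and triglyceride synthesis, fatty acid synthesis, transcription factors, and receptors), the summed level in counts per 1000000 UMIs (CPM) was 803, 1324, 2727 and 2730 in spots with 0 UMIs of the rule genes. In spots with 2 such UMIs it was 2461, 2665, 4490 and 5068 CPM. In the few spots with 10 or more, 2, 5, 6 and 47 spots, it reached 15290, 17320, 25641 and 15147 CPM. The order was the same in each section, and spots with 1 UMI, at 841, 1649, 3163 and 2940 CPM, lay close to spots with 0. Between spots with 0 and spots with 10 or more, acinar enzymes went from 203773 to 3441 CPM in fl/fl replicate 2 and from 614893 to 476409 CPM in +/+ replicate 1.

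**Figure D2:**
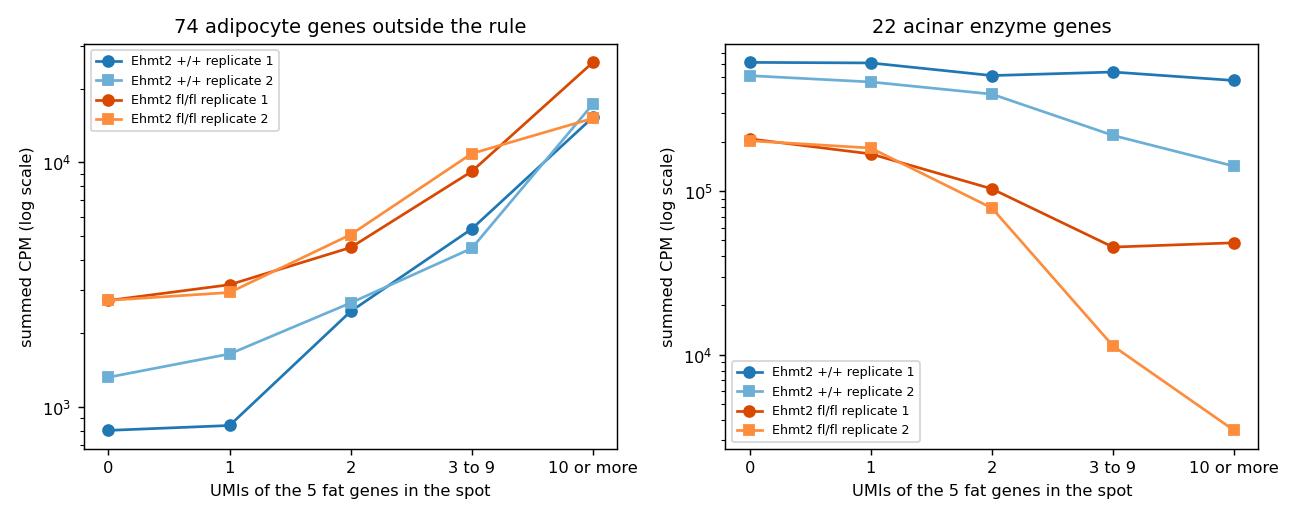
Summed CPM of 74 adipocyte genes outside the rule (left) and of 22 acinar enzyme genes (right), on log scales, in spots grouped by their UMIs of the 5 fat genes, with 1 line per section. The adipocyte genes rise in all 4 sections from spots with 0 UMIs to spots with 10 or more, which number 2, 5, 6 and 47.

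Set against the other spots of the same section, 18 genes had at least 4 times the CPM in fat spots in each of the 4 sections, among 4198 genes with at least 20 UMIs in fat spots (0.429%). Because the spots were chosen on this contrast, these ratios are a description and were not tested. Of the 18, *Car3*, *Cfd*, *Adipoq* and *Cidec* were rule genes and *Plin1* failed for want of UMIs in +/+ replicate 1. The other 14 were *Fabp4*, *Adrb3*, *Slc2a4*, *Adig*, *Hp*, *Serpina3n*, *Saa1*, *Rarres2*, *Aoc3*, *Nnmt*, *Retnla*, *Fcna*, *Igha* and *Mzb1*. Of the 74 adipocyte genes, 40 had at least 20 UMIs in fat spots, 4 were at least 4-fold and 14 at least 2-fold higher in all 4 sections, the latter against 2.91% of all 4198 genes. The median of their lowest ratio over the sections was 1.72, against 0.748 over all 4198. These 40 passed a floor on fat-spot UMIs that favors genes high in fat spots, so the share is not one of all 74. Without +/+ replicate 1 the count of genes at least 4-fold higher was 30, and without fl/fl replicate 1 it was 31, while the 4 adipocyte genes became 8 without +/+ replicate 2.

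**Figure D3:**
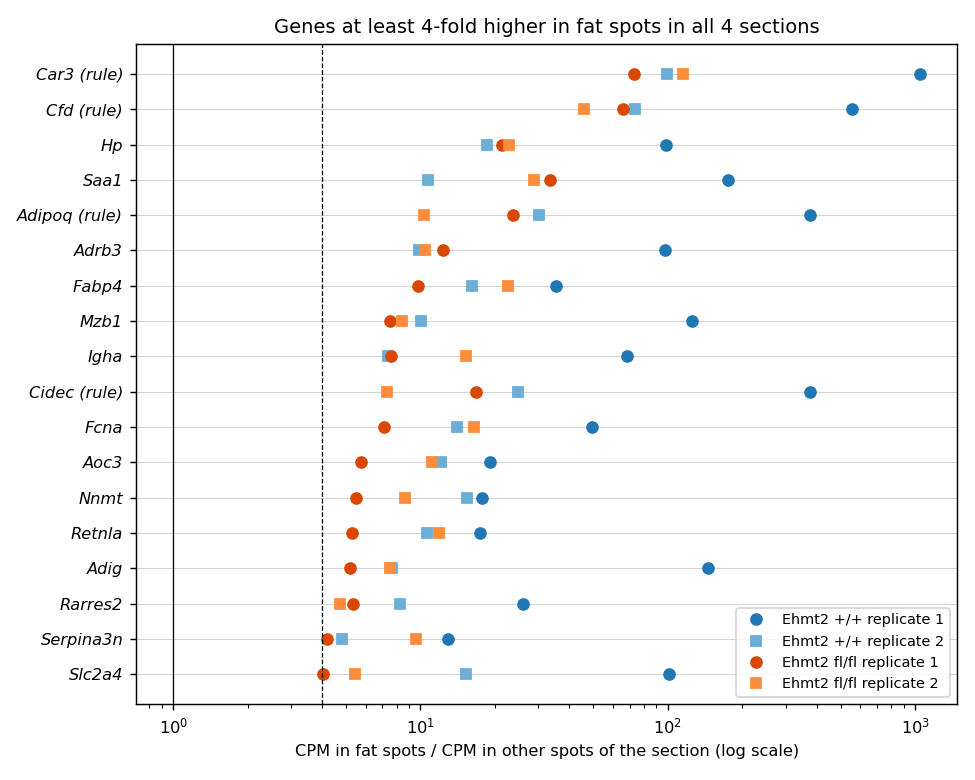
Ratio of CPM in fat spots to CPM in the other spots of the same section (x axis, log scale) for the 18 genes with a ratio of at least 4 (dashed line) in all 4 sections, with 1 point per section and the solid line at 1. *Ehmt2* +/+ replicate 1 lies farthest right for every gene, and *Slc2a4* in *Ehmt2* fl/fl replicate 1 lies at 4.04.

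Part of a low ratio can be background. Olfactory receptor genes, a family of 1107 measured genes with no known use in fat and set beside the others after the data were seen, had 4.07, 2.59, 1.64 and 1.22 times the summed CPM in fat spots that they had in other spots. Their 95th percentile in fat spots was 19.9, 44.6, 40.2 and 34.8 CPM per gene. Only 5 of them had 20 UMIs in fat spots and so could enter the count of genes 4-fold higher, and 0 did, which sets no upper limit on what background can reach. At 2-fold *Olfr420* entered, with 20 UMIs and ratios of 24.3, 6.52, 2.44 and 2.47, so counts at 2-fold are not free of background. A gene at or below these 95th percentiles in a section is not distinguished from background there, and in +/+ replicate 1 a single UMI is 19.9 CPM. Of genes given with a ratio, *Retn*, *Plin4*, *Pck1*, *Cebpd*, *Mrc1*, *Des* and *Pdgfra* were at or below it in both +/+ sections. *Mzb1*, *Alox15*, *Cspg4*, *Scd1*, *Srebf1* and *Mlxipl* were so in +/+ replicate 1. In +/+ replicate 2, *Adig*, *Pnpla2*, *Anxa3*, *Cd68*, *Col1a1*, *Kdr*, *Vwf*, *Myh11* and *Tagln* were so. *Klf15* and *Pdgfra* were so in fl/fl replicate 1, *Krt19* in fl/fl replicate 2 and *Thrsp* in both fl/fl sections.

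Among secreted proteins of adipocytes, *Adig* (adipogenin, a small membrane protein listed here with them) had 79.6, 44.6, 64.4 and 99.3 CPM in fat spots and ratios of 146, 7.69, 5.21 and 7.52. *Lgals12*, a galectin of lipid droplets, had 39.8, 74.3, 88.5 and 139 CPM and ratios from 3.36 to 7.31. *Retn* (resistin) had ratios from 2.84 to 51.5 and levels of 19.9, 44.6, 64.4 and 44.7 CPM, which in both +/+ sections equal the 95th percentile of olfactory receptors. *Nnat* had 0, 2, 2 and 16 UMIs, and of leptin (*Lep*) 0, 2, 1 and 10 UMIs were counted. Only 4 of the 12 genes of this list had 20 UMIs in fat spots, and 3 of these were at least 2-fold higher throughout.

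Lipid droplet and lipolysis genes outside the rule included *Fabp4* and both main lipases of adipocytes. *Fabp4*, the fatty acid carrier of adipocytes that capillary endothelium and macrophages also make, had 1353, 1277, 2519 and 5032 CPM in fat spots, which was 35.3, 16.2, 9.80 and 22.7 times the other spots. *Lipe* (hormone-sensitive lipase) had 199, 59.4, 338 and 690.5 CPM with ratios of 16.9, 1.74, 5.03 and 10.1. *Pnpla2* (adipose triglyceride lipase) had ratios of 2.38, 1.48, 3.10 and 8.11, and *Plin4*, another perilipin, 25.0, 2.46, 4.61 and 8.83 from 1, 2, 9 and 42 UMIs. The lipases were lowest in +/+ replicate 2 and, by level, highest in fl/fl replicate 2. Of the 11 genes of this list with enough UMIs, 3 were at least 2-fold higher in all sections, and summed over the list fat spots had 7.69, 4.28, 4.03 and 7.84 times the level of other spots.

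Uptake and triglyceride synthesis genes had the most members past 2-fold, 5 of 9, against 2.91% of all 4198 genes. Among them *Pck1* and *Lpin1*, a phosphatidate phosphatase gene, were not above the olfactory receptor background in either +/+ section. *Lpin1* had 19.9 and 44.6 CPM there. *Slc2a4*, the insulin-responsive glucose transporter GLUT4, had 119, 149, 80.5 and 134 CPM and ratios of 101, 15.3, 4.04 and 5.43. *Cd36*, which takes up fatty acids, had ratios of 5.64, 4.21, 2.14 and 3.09, *Gpd1*, which supplies the glycerol backbone, 6.48, 3.41, 4.03 and 6.93, and *Pck1*, an enzyme of glyceroneogenesis, 48.6, 3.61, 4.76 and 6.80 from 1, 2, 8 and 29 UMIs. *Gpd1* was the most even of these across the sections.

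Of receptor genes with 20 UMIs, 1 of 4 was at least 2-fold higher in all 4 sections. *Adrb3*, the beta3-adrenergic receptor through which sympathetic nerves switch on lipolysis, had 79.6, 89.1, 225 and 238 CPM in fat spots and ratios of 97.2, 9.86, 12.3 and 10.5. *Pde3b*, the phosphodiesterase through which insulin restrains lipolysis, had ratios between 1.88 and 2.87. *Irs1*, which relays the insulin signal, had 0, 3, 1 and 19 UMIs in fat spots. Of transcription factors, none of the 5 with 20 UMIs was 2-fold higher throughout: *Cebpb* had ratios of 2.69, 1.22, 0.967 and 1.37, *Cebpd* 1.32, 0.673, 1.48 and 1.85, *Klf15* 1.25, 1.86, 1.01 and 3.18, and the liver X receptor gene *Nr1h3* 2.47, 2.82, 1.44 and 2.32. *Pparg*, the master regulator of adipocyte differentiation, had 0 UMIs in the fat spots of all 4 sections, and 7, 0, 2 and 1 UMIs in all the other spots, fewer than the mean olfactory receptor gene, so these counts give no level for it.

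Brown fat genes were scarce in these spots. None of the 12 genes of that list had 20 UMIs in fat spots, the list summed to 0.701, 2.30, 0.785 and 1.16 times the other spots, and *Ucp1*, the uncoupling protein that defines brown adipocytes, had 0, 1, 1 and 4 UMIs. The 4 with the most UMIs, *Elovl3*, *Prdm16*, *Cox8b* and *Dio2*, had at most 10 UMIs in any section. *Pdgfrb*, on progenitors and pericytes, had ratios of 6.07, 1.56, 1.82 and 2.31, whereas *Anxa3* had 1.40, 0.254, 0.726 and 0.816.

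Acute-phase genes were among those with the highest ratios. *Hp* (haptoglobin), made by adipocytes as well as by liver and neutrophils, had 179, 297, 1594 and 1436 CPM in fat spots against 1.82, 15.99, 74.6 and 62.9 CPM in the other spots. *Saa1*, a serum amyloid A gene, had 79.6, 74.3, 499 and 755 CPM, with ratios of 175, 10.7, 33.3 and 28.9. The protease inhibitor gene *Serpina3n* had 179, 134, 306 and 656 CPM and ratios of 12.95, 4.83, 4.198 and 9.55. In all of these the fl/fl sections were above both +/+ sections in fat spots and in the other spots too. *Mt1* (metallothionein), of the same inflammation and acute-phase list, was not raised in this way, with 0.747, 0.809, 1.18 and 1.23 times the level of other spots, and as it gave most of the list's UMIs the list summed to 0.850, 0.932, 1.55 and 1.56 times. Of the 9 genes of that list with enough UMIs, *Hp*, *Serpina3n*, *Saa3* and *Steap4* were at least 2-fold higher in every section. *Steap4* had 1, 2, 5 and 16 UMIs and was above the olfactory receptor background only in fl/fl replicate 2. *Saa3*, with 1 UMI in +/+ replicate 1, was not above it there.

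**Figure D4:**
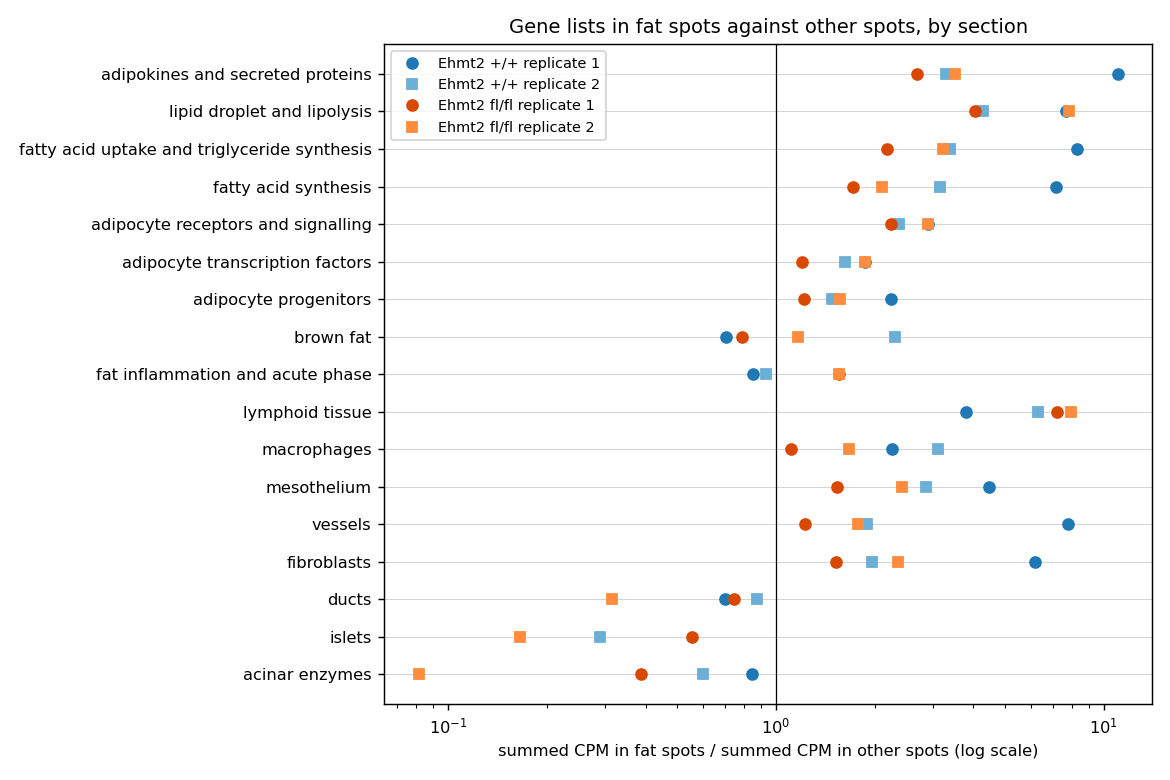
Summed CPM of 17 gene lists in fat spots divided by that in the other spots of the same section (x axis, log scale), with 1 point per section and the vertical line at 1. Acinar, islet and duct lists lie left of 1, lipid droplet genes between 4.03 and 7.84, and the islet list of *Ehmt2* +/+ replicate 1, at 0 UMIs, is not drawn.

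Some genes of immune cells had high ratios. The lymphoid list summed to 3.80, 6.31, 7.21 and 7.93 times the other spots, from 2, 45, 219 and 460 UMIs, and exceeded the olfactory receptor background in all but +/+ replicate 1. None of its 5 genes with 20 UMIs in fat spots was 2-fold higher in all 4 sections, where zeros in the few UMIs of +/+ replicate 1 count against them, and 1 of 8 macrophage genes was. The 10 genes outside every list with the largest lowest ratio were *Saa1*, *Mzb1*, *Igha*, *Fcna*, *Aoc3*, *Nnmt*, *Retnla*, *Rarres2*, *Alox15* and *Cspg4*. *Igha*, the heavy chain of immunoglobulin A, had 119, 149, 249.5 and 487 CPM with ratios of 68.2, 7.37, 7.59 and 15.3, and *Mzb1*, a plasma cell gene, had 1, 4, 9 and 24 UMIs with ratios from 7.55 to 125. *Cd79a* and *Ighm*, genes of the B cell receptor, had 0, 19, 91 and 117 and 0, 9, 82 and 262 UMIs. Their ratios were 19.0, 14.8 and 18.3 and 10.5, 18.4 and 17.1 in +/+ replicate 2 and the fl/fl sections. In +/+ replicate 1, where the other spots had 0.614 and 1.05 CPM, the depth of the fat spots was too low for 0 UMIs to show a lack. *Alox15*, a lipoxygenase of peritoneal macrophages, had 19.9, 416, 185 and 1123 CPM and ratios of 28.2, 22.3, 3.93 and 14.9. *Fcna* (ficolin A) of macrophages had ratios from 7.14 to 49.5 and *Retnla*, made by adipose tissue and alternatively activated macrophages, from 5.29 to 17.4. *Cd5l*, a gene of tissue macrophages, had 0, 21, 18 and 68 UMIs.

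*C1qa* had ratios of 2.27, 4.13, 1.18 and 2.09, *Cd68* 3.32, 1.64, 0.991 and 1.42 and *Mrc1* 3.24, 3.31, 1.08 and 2.38. *Cd163* was the macrophage gene that was 2-fold higher in all 4 sections, from 1, 1, 5 and 23 UMIs. Only in fl/fl replicate 2 was its level above the olfactory receptor background. *Apoe*, which macrophages and other cells secrete, had 12.4, 6.71, 1.51 and 4.75 times the level of other spots, and the lysosomal gene *Ctsd* 1.54, 0.762, 0.652 and 1.02. *Ly6g*, *Csf3r* and *S100a8* of neutrophils had at most 6 UMIs in any section.

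Other genes outside the lists are known from adipose tissue or its vessels. *Nnmt*, a nicotinamide methyltransferase high in white fat, had 79.6, 238, 298 and 492 CPM and ratios of 17.8, 15.4, 5.46 and 8.64. *Aoc3*, an amine oxidase of adipocytes and vessels, had 79.6, 149, 153 and 288 CPM and ratios from 5.75 to 19.1, and *Rarres2*, which encodes the adipokine chemerin, had ratios from 4.74 to 26.0. *Cspg4* of pericytes had ratios between 3.601 and 12.2.

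Connective tissue, vessel and mesothelial lists had ratios above 1 in all 4 sections, but not all of them exceeded the olfactory receptor background of 2.59 in +/+ replicate 2 and 1.64 in fl/fl replicate 1. In these sections the fibroblast list had 1.96 and 1.53 times the level of other spots, the vessel list 1.89 and 1.22 and the mesothelial list 2.87 and 1.53. *Col1a2*, *Col3a1* and *Col1a1*, the fibrillar collagens of fibroblasts, had ratios of 6.59, 2.004, 1.47 and 2.08, of 5.71, 1.89, 1.51 and 2.94, and of 6.45, 0.947, 1.63 and 1.28. Of endothelial genes, *Vwf* had ratios of 35.5, 2.82, 2.93 and 3.27 from 3, 2, 7 and 13 UMIs, *Kdr* 6.68, 1.46, 1.31 and 2.04, and *Cdh5* only 1 UMI in 3 of the sections. Of smooth muscle genes, *Myh11* had ratios of 18.0, 2.37, 4.46 and 6.47, *Des* 5.76, 1.20, 2.65 and 2.93 and *Tagln* 17.5, 4.202, 1.31 and 1.57. *Slpi*, a protease inhibitor in the mesothelial list that other epithelia also make, had 5.09, 3.75, 1.36 and 2.77, while the defining mesothelial genes *Msln* and *Upk3b* had at most 8 UMIs in any section. When up to 200 spots were chosen in the same way for 8 fibroblast genes, 12 of 22, 4 of 64, 20 of 160 and 30 of 200 fat spots were among them, and for lymphoid genes 0 of 22, 7 of 64, 38 of 160 and 56 of 200 were. Fat spots and lymphoid spots thus overlapped by 23.8% and 28.0% of the fat spots in the fl/fl sections, which is 19.0% and 28.0% of the lymphoid spots, where these were 200 of 7581 and 200 of 8084 spots. Macrophage spots chosen likewise held 8 of 160 and 11 of 200 fat spots of the fl/fl sections, and mesothelial spots 10 of 160 and 24 of 200.

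Pancreatic genes were present in fat spots to very different extents. Acinar enzyme transcripts made up 519923, 304844, 80026 and 16338 CPM in fat spots, 0.846, 0.600, 0.388 and 0.0816 times the other spots. *Ctrb1* (chymotrypsinogen) alone had 318089, 195921, 55782 and 11684 CPM. *Cela2a* and *Cela3b* (elastases) had ratios from 0.0656 to 0.729 and from 0.0701 to 0.830. Acinar transcripts were therefore a large share of the UMIs in +/+ fat spots and a small one in those of fl/fl replicate 2. Islet transcripts were seen mainly in fl/fl replicate 1, where *Ins2* had 245 and *Ins1* 131 UMIs, against at most 15 and 7 in the other sections, with *Iapp* at 0, 1, 28 and 4. *Krt19* of ducts had 0.356, 0.458, 0.641 and 0.150 times the level of other spots, and *Muc1* 0, 4, 5 and 2 UMIs. Hemoglobin transcripts of red blood cells (*Hba-a2* at 8, 0, 8 and 195 UMIs, *Hbb-bs* at 6, 0, 6 and 99 and *Hbb-bt* at 2, 0, 2 and 31) were concentrated in fl/fl replicate 2.

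Between genotypes, no gene was called in fat spots. UMIs were summed over the fat spots of each section and 1391 genes were tested with edgeR's quasi-likelihood test. At a Benjamini-Hochberg adjusted p under 0.05 it called 0 genes (0%), with 132 genes at an unadjusted p under 0.05 and a lowest adjusted p of 0.209. DESeq2 called 31 genes, 1 higher and 30 lower in fl/fl. The edgeR count was 56 without +/+ replicate 1, 100 without +/+ replicate 2, 31 without fl/fl replicate 1 and 0 without fl/fl replicate 2, where the lone section of a group is assumed to vary like the others. With library sizes alone, without TMM factors of 0.491, 0.757, 1.52 and 1.77, edgeR called 285, of which 275 were higher in fl/fl, and the median log2 fold change of all genes was 1.43 in place of 0.05. As acinar enzymes took a larger share of fat-spot UMIs in the +/+ sections, every other gene's CPM is lower there by what these take, and how many genes are higher in fl/fl turns on the scaling.

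The genes with the largest differences among those that did not overlap were Y-linked or pancreatic, not adipocyte genes. The 5 highest in fl/fl were *Gm21310*, *Gm20825*, *Gm21118*, *Gm20854* and *Gm20914*, all on the Y chromosome and members of near-identical families that probes may not separate, with 0 or 1 UMI in the fat spots of either +/+ section. *Gm21310* had 0, 0, 596 and 825 CPM in fat spots, and 0.0909, 1.39, 375 and 878 CPM in the other spots. The 5 lowest were *Cela2a*, *Reg2*, *Reg3b*, *Pnlip* and *Ctrl*, all products of acinar cells, with log2 fold changes from -5.54 to -4.43. All 5 were lower in both fl/fl sections in the other spots too. *Pnlip*, pancreatic lipase, had 3223, 609, 209 and 64.6 CPM in fat spots, with a log2 fold change of -4.65 (standard error 1.10, edgeR adjusted p = 0.260). In the other spots it had 5162, 1929, 511 and 437 CPM. Of all tested genes, 861 were higher and 73 lower in both fl/fl sections than in both +/+ sections by CPM, which is 67.1% of them.

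None of the adipocyte genes passed the test between genotypes. For *Fabp4*, *Lipe*, *Adrb3* and *Fasn* the CPM of the groups did not overlap, as for 67.1% of all 1391 genes tested. Those of *Slc2a4* overlapped, at 119, 149, 80.5 and 134 CPM. *Fabp4* had a log2 fold change of 0.72 (standard error 0.66, edgeR adjusted p = 0.762), *Lipe* 1.25 (0.69, adjusted p = 0.644) and *Adrb3* 0.67 (0.47, adjusted p = 0.698). Among acute-phase genes, *Saa1* was at 2.24 (0.52, edgeR adjusted p = 0.260), and *Hp* at 1.88 (0.53, adjusted p = 0.330). By CPM, 4 of 4 fl/fl against +/+ section pairs went this way for both genes, as for 861 of the 1391 genes tested. *Fasn* (fatty acid synthase) had 796, 149, 64.4 and 139 CPM and a log2 fold change of -2.96 (0.85, edgeR adjusted p = 0.333), lower in both fl/fl sections. The rule genes, given as a description, had summed levels of 2129, 3327, 4564 and 7054 CPM in fat spots.

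Summed list levels are given between genotypes for the 7 lists with at least 20 UMIs in the fat spots of every section, a limit set after the counts were seen, and 2 against 2 sections cannot give an exact permutation p below 0.333. Lipid droplet and lipolysis genes had 1998 ± 157 CPM (SD, n = 2) in +/+ and 5293 ± 2237 in fl/fl fat spots, a log2 ratio of 1.41 (exact two-sided permutation p = 0.333). Inflammation and acute-phase genes had 4079 ± 54.9 and 8789.9 ± 1514 CPM (log2 ratio 1.11), fibroblast genes 1999 ± 1083 and 3995 ± 960.3 (0.999), lipid-handling macrophage genes 1032 ± 137 and 1815 ± 256 (0.81) and uptake and triglyceride synthesis genes 628 ± 68.6 and 973 ± 352 (0.63). Fatty acid synthesis genes had 1182 ± 411 and 989 ± 169 CPM (-0.26, exact permutation p = 0.667) and acinar enzymes 412383 ± 152084 and 48182 ± 45034 (-3.10). With the acinar enzymes left out of the totals these log2 ratios became 0.64 for lipid droplets, 0.36 for inflammation, 0.15 for fibroblasts, 0.10 for lipid-handling macrophages, -0.15 for uptake and -1.06 for fatty acid synthesis. With the deepest section thinned they were -0.00208 for lipid droplets and -0.50 for uptake. With spots of at least 1% of UMIs from the 5 genes, uptake was at -0.64 and lipid-handling macrophages at -0.17. Fatty acid synthesis changed sign in 4 of 12 alternatives, while inflammation, fibroblast and acinar lists kept theirs in every alternative run. The differences were not confined to fat spots. In the other spots lipid droplet genes had 274, 441, 921 and 877 CPM and fibroblast genes 447, 630, 2174 and 1982. Lipid-handling macrophage genes had 419, 492, 2273 and 1305 there, uptake genes 81.9, 171, 333 and 377, and inflammation genes 4844, 4335, 4970 and 6321. Acinar enzymes had 614787, 507887, 206086 and 200276. Fatty acid synthesis genes were higher in fl/fl there, at 207, 282, 506 and 525.

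A second test asked, within sections, whether the genotype difference in fat spots departed from that in the other spots. It was fitted with edgeR over fat and other spots of all 4 sections and called 1 of 19984 genes (0.00500%), with 1532 genes at an unadjusted p under 0.05. DESeq2 called 0, with 545 at that level. The TMM factors of the edgeR fit were 1.11, 1.56, 1.64 and 1.76 for fat spots and 0.174, 0.693, 1.18 and 1.41 for other spots. Its log2 differences therefore depart from those of the CPM ratios. The called gene was *Thrsp* (chromosome 7, 97412933 to 97417550 of GRCm38.p6), which encodes a thyroid hormone-responsive protein of lipogenic tissue. It had 5, 7, 1 and 3 UMIs in fat spots, or 99.5, 104, 8.05 and 14.9 CPM, against 0.932, 6.14, 12.8 and 19.9 CPM in the other spots. The +/+ fat spots were thus 107 and 16.9 times above their surroundings and the fl/fl fat spots 0.629 and 0.750 times. The log2 difference was -4.17 (standard error 0.88, edgeR adjusted p = 0.0418), where the median of all genes was 0.87. The call rests on 16 UMIs in all, and it held in 3 of 14 alternatives, with adjusted p from 3.76e-06 to 1. In the edgeR fit its adjusted p was 0.783 without +/+ replicate 1, 0.993 without fl/fl replicate 1 and 1 without fl/fl replicate 2, whereas without +/+ replicate 2 the fit called 592 genes, with *Thrsp* at an adjusted p of 0.0106.

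The fatty acid synthesis list summed to 7.12, 3.16, 1.72 and 2.11 times the other spots, with both +/+ sections above both fl/fl sections as for *Thrsp*. The olfactory receptor background had the same order, at 4.07, 2.59, 1.64 and 1.22 times. So did the uptake and triglyceride synthesis list, at 8.26, 3.38, 2.18 and 3.24 times, and the order is thus not particular to fatty acid synthesis. Of the 7 fatty acid synthesis genes with 20 UMIs in fat spots, *Fasn*, *Slc25a1*, *Mlxipl* and *Acaca* had this order and *Scd1* the reverse. The groups did not overlap in 34.2% of all 19984 genes tested. *Fasn* had 31.8, 5.41, 1.04 and 2.66 times the level of other spots, and *Scd1* (stearoyl-CoA desaturase) 1.51, 5.03, 8.74 and 9.14. *Srebf1*, a transcription factor of lipogenesis, had ratios of 0.483, 2.09, 1.34 and 1.23, and *Slc25a1*, the mitochondrial citrate carrier, 2.25, 2.37, 1.71 and 2.09. *Mlxipl*, which encodes the carbohydrate-responsive factor ChREBP, had 7.06, 7.83, 1.93 and 4.61. For *Fasn* and *Scd1* the log2 difference in the second edgeR fit was -1.42 (standard error 0.76, edgeR adjusted p = 0.641) and 2.98 (0.82, adjusted p = 0.617). These values are scaled by TMM factors and are not differences of the CPM ratios given here. Of the 7 genes of this list with 20 UMIs in fat spots, *Acaca* and *Pcx*, carboxylases that supply malonyl-CoA and oxaloacetate, were at least 2-fold higher in all 4 sections. *Acaca*, with 2 UMIs in +/+ replicate 2, was not above the olfactory receptor background there.

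**Figure D5:**
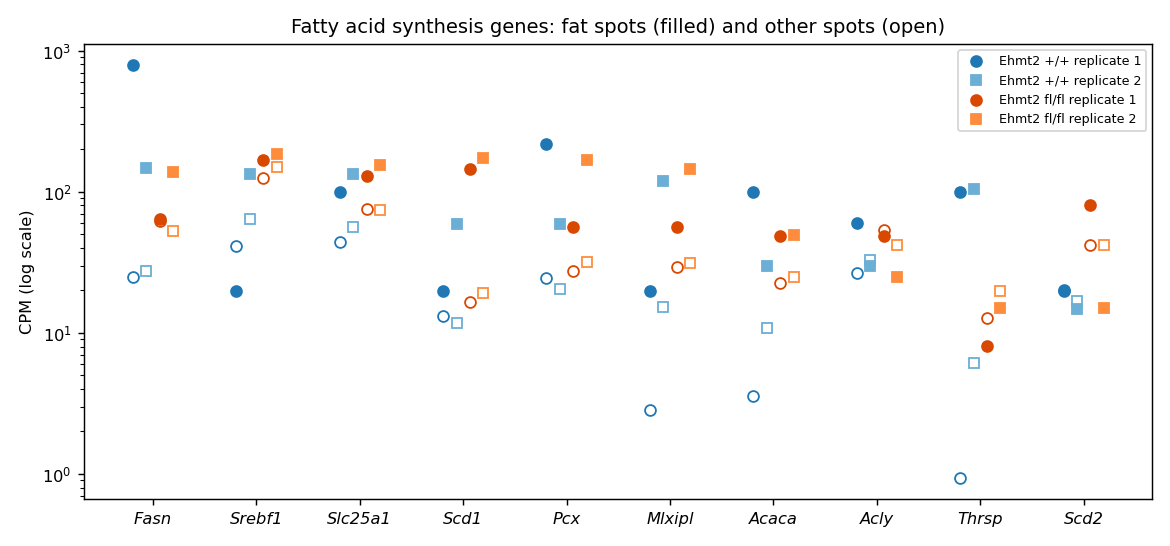
CPM (log scale) of fatty acid synthesis genes with at least 15 UMIs in fat spots, in fat spots (filled) and in the other spots (open) of each section. For *Thrsp* the filled points of *Ehmt2* +/+ lie at 99.5 and 104 above their open points, and those of *Ehmt2* fl/fl at 8.05 and 14.9 below theirs.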

How the data were processed

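Sections of formalin-fixed pancreas were profiled with the CytAssist Visium workflow. The authors ran Space Ranger 2.0.1 against mm10 and the mouse probe set, and deposited raw UMI counts for 14189, 14336, 14008 and 14336 barcoded positions of the 4 sections, on and off the tissue. Of the features, 304 from deprecated probes were left out, leaving 32285. The members and the gene lists were chosen with earlier results of these data known. Other spots were all remaining spots with at least 150 UMIs. Tissue marks could not be joined to barcodes, so this limit stood in for tissue, and some of these spots may lie off it. For ratios of single genes, fewer than 3 counts in the other spots were set to 3 counts. Levels are not compared between genes because each gene has its own probes. Sums per section were fitted with edgeR 4.0.16 in R 4.3.3 (TMM, filterByExpr with a minimum count of 10), with genotype as the factor or, over fat and other spots, with section, spot class and spot class by genotype. Alternatives were DESeq2 1.42.0, other member rules, other scalings and each section left out. Each group is 2 sections, taken to be 2 mice, and p-values measure the spread between them.

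Genes were named by rule: the 5 rule genes, the 4 of each adipocyte and brown fat list and the 3 of each other list with the most fat-spot UMIs, the 10 unlisted genes with the largest lowest ratio, the called genes or else the 5 highest and 5 lowest of each genotype test, *Ehmt2* and the sex-linked genes. *Lep*, *Pparg*, *Ucp1*, *Acaca*, *Pcx*, *Mlxipl*, *Alb*, *Cd163*, *Saa3*, *Steap4*, *Lpin1* and *Olfr420* were added after their values were seen. *Ehmt2* and its partners, a list not described in the report, had 1, 4, 24 and 28 UMIs in fat spots, led by *Ehmt1*, *Wiz* and *Setdb1*. Some genes that this rule names are not reported here.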

Additional observations from a re-analysis of the deposited data

Results flagged for a closer look

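*Thrsp* was singled out because its ratio of fat to other spots differed between genotypes in the edgeR fit over both spot classes (log2 difference -4.17, adjusted p = 0.0418), from 5 and 7 UMIs in +/+ and 1 and 3 UMIs in fl/fl fat spots.

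The inflammation and acute-phase list lay below the other spots in both +/+ sections, at 0.850 and 0.932 times, and above them in both fl/fl sections, at 1.55 and 1.56 times. The difference between genotypes in this summed ratio was not tested. Of the named genes with at least 20 UMIs in fat spots and at least 1 UMI in every section, 3 lay on opposite sides of 1 in the genotypes. *Mt1*, which gave most of that list's UMIs, had ratios of 0.747, 0.809, 1.18 and 1.23 (edgeR log2 difference 2.15, standard error 0.96, adjusted p = 0.631). *Pdgfra*, a receptor of fibroblasts and adipocyte progenitors, had ratios of 0, 0, 1.16 and 2.41 from 0, 0, 5 and 24 UMIs (edgeR adjusted p = 0.631). With 6.16 and 13.3 CPM in the other spots of the +/+ sections, fat spots at the same level would hold under 1 UMI, so its ratios of 0 carry no direction. *Krt7*, a keratin of ducts and mesothelium, had 1.85, 1.47, 0.631 and 0.269 (edgeR log2 difference -0.46, standard error 0.98, adjusted p = 0.890). None of these 3 passed the test of the difference. The edgeR log2 differences are scaled by TMM factors and need not match the CPM ratios beside them.

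Spots under 150 UMIs were left out of all comparisons, yet some carried the 5 fat genes. At least 2 UMIs of these were found in 0 of 7150 and 2 of 4058 such spots of the +/+ sections, and in 14 of 6427 and 18 of 6252 of the fl/fl sections.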

How the results depend on the processing

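Precision is limited by depth: 179 of 446 fat spots rest on exactly 2 UMIs of the 5 genes, and +/+ replicate 1 holds 22 fat spots. Alternatives that used as many spots in every section as +/+ replicate 1 holds, and that asked for 5 UMIs, were chosen after seeing the data. The causes of the changes below were not tested.

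The count of 18 genes at least 4-fold higher in fat spots was 1 when *Adipoq*, *Plin1* and *Cidec* alone chose the spots, which left 1, 6, 8 and 26 of them, 122 at 2-fold, and 16 to 31 with 1 section left out. The 4 adipocyte genes among them became 0, 14 and 3 to 8 in these settings (8 without +/+ replicate 2), and 8 with at least 5 UMIs. Of the 18 genes, 17 remained with a minimum of 300 UMIs or with 100 spots, 15 with acinar enzymes left out of the totals, 12 with at least 5 UMIs, 11 with the deepest section thinned, 10 with equal numbers of spots and 8 at 1% of UMIs.

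The 0 genes called between genotypes became 25 with *Adipoq*, *Plin1* and *Cidec* alone, 6 with the deepest section thinned, where its fat spots fell to 2, 285 with library sizes alone, 31 with DESeq2, 35 with no filter, and 0 to 100 with 1 section left out (56 without +/+ replicate 1, 100 without +/+ replicate 2, 31 without fl/fl replicate 1). The 1 gene called for a difference between fat and other spots became 0 with a minimum of 300 UMIs, 100 spots, 1% of UMIs, *Adipoq*, *Plin1* and *Cidec* alone, thinning, 5 UMIs, DESeq2 or no filter, 3 without acinar enzymes in the totals, 4 with library sizes alone, and 0 to 592 with 1 section left out (592 without +/+ replicate 2, 0 without any other). *Thrsp* stayed lower in 14 of 14 alternatives, at -12.07 to -1.74 on the log2 scale, and passed without acinar enzymes in the totals, with library sizes alone and without +/+ replicate 2. With *Adipoq*, *Plin1* and *Cidec* alone it gave no usable estimate.

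Between genotypes, the log2 ratio of lipid droplet genes (1.41) was -0.00208 with the deepest section thinned. That of uptake genes (0.63) was -0.64 at 1% of UMIs, -0.15 without acinar enzymes in the totals and -0.50 thinned. That of fatty acid synthesis (-0.26) was 0.13 with 100 spots, 0.55 with *Adipoq*, *Plin1* and *Cidec* alone, 0.0855 with equal numbers of spots, and -0.57 to 0.15 with 1 section left out (0.15 without +/+ replicate 1). That of lipid-handling macrophage genes (0.81) was -0.17 at 1% of UMIs. Inflammation (0.34 to 2.53), fibroblast (0.15 to 1.78) and acinar lists (-4.66 to -2.25) kept their sign in every alternative run. No paired analysis was possible because the labels number no replicates: 1 and 2 follow the order of deposit within a group and pair no sections.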
